A study of Homo sapiens with 6 samples.

Results

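The circadian clock genes described here are 10 genes chosen by name, *CLOCK*, *ARNTL*, *PER1*, *PER2*, *PER3*, *CRY1*, *CRY2*, *NR1D2*, *BHLHE40* and *BHLHE41*. All 10 were found among the 17222 gene names of the count table, and all 10 passed the filter on low counts. They were read in RNA-seq of H226, an established line derived from a human squamous carcinoma of the lung, transfected either with ASO_CTRL, a control antisense oligonucleotide, or with ASO_LINC#3, one made to target the lncRNA *SWINGN* (*LINC00565*). Each condition had 3 libraries, all of cells collected after 48 h. A single knockdown oligonucleotide was sequenced, and its target transcript was not analysed here. With 1 time of collection the data give a level for each gene and no rhythm or phase.

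The circadian clock is a feedback loop of transcription found in most human cells. CLOCK and ARNTL (also named BMAL1) pair on E-box sequences and switch on the *PER* and *CRY* genes, whose proteins return to the nucleus and repress that pair. A second loop joins through the nuclear receptors NR1D1 and NR1D2, which repress *ARNTL* at the RORE sequence, and RORA, which activates it there. BHLHE40 and BHLHE41 (DEC1 and DEC2) compete for E-boxes, and *BHLHE40* is also known to respond to low oxygen and to growth factors.

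These promoter sequences show which elements of the loop the clock genes carry near their RefSeq start sites (GRCh38.p14). They run 5′ to 3′ on the strand of the gene, with matched motifs in capitals. The motifs, searched on both strands of windows of 300 bases (250 before the start and 50 from it on), were the E-box (CACGTG, which reads the same on both strands), the D-box (TTATGTAA), the RORE (ANTAGGTCA, where N is any base) and the CRE (TGACGTCA). None of these motifs contains another. Windows were found for all 10 genes, 15 in all, and 6 of the 10 genes had a motif in one.
*PER1*, chr17:8152532-8152617, minus strand: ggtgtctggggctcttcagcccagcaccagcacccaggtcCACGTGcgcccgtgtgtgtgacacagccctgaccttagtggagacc
*PER3*, chr1:7784074-7784161, plus strand: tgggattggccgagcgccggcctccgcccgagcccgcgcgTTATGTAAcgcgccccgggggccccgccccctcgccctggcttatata
*NR1D2*, chr3:23945887-23946061, plus strand: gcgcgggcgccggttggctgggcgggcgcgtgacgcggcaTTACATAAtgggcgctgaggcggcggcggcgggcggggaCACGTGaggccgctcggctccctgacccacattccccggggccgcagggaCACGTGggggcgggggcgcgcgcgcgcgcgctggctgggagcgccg
*BHLHE40*, chr3:4979187-4979237, plus strand: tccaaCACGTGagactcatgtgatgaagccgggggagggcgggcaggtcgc
*BHLHE41*, chr12:26125040-26125125, minus strand: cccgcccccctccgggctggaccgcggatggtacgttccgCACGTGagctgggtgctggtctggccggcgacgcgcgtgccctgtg
*ARNTL*, chr11:13277808-13277836, plus strand: gaaggcagaaAGTAGGTCAgggacggagg

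An E-box lay in a window of 4 of the 10 genes, *PER1*, *NR1D2* (which has 2, along with a D-box on the other strand), *BHLHE40* and *BHLHE41*, and in 8.77% of the 27305 genes with a window. *PER3* had the D-box, the site of DBP, TEF, HLF and NFIL3, which 1.13% of genes had. *ARNTL* was the only one of the 10 with this RORE, which 0.612% of genes had, and it lies past the start. A CRE was in none of the 10 and in 2.25% of genes. A match is a description of letters, and a gene with no match here may carry other forms of these elements or carry them elsewhere.

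The libraries held between 3686828 and 10546786 counts on genes, with ASO_LINC replicate 3 the lowest. Reads assigned to no gene were 24.8% to 26.3% of an ASO_CTRL library and 27.9% to 28.1% of an ASO_LINC library. Of 6 squamous markers *KRT5* and *KRT6A* were measured and the rest not analysed here. *KRT5* had 94.4 to 117 CPM in ASO_CTRL and 62.6 to 77.8 CPM in ASO_LINC (edgeR adjusted p = 0.0192, not called). *KRT6A* had at most 1 read in an ASO_CTRL library and 4 to 14 reads in ASO_LINC, too few to be tested. The summed level of 4 mesothelial markers (*MSLN*, *WT1*, *CALB2*, *UPK3B*) was 634 to 833 CPM in ASO_CTRL and 209 to 322 CPM in ASO_LINC. This sum was mostly *CALB2*, with means of 601 CPM in ASO_CTRL and 154 CPM in ASO_LINC, and only *CALB2* passed the test. The log2 fold changes of *MSLN*, *WT1* and *UPK3B* were 0.06, -0.32 and -0.92 (edgeR adjusted p = 0.91, 0.212 and 0.0104). *UPK3B* was just short of a call, with 43.9 to 52.8 CPM in ASO_CTRL and 20.1 to 35.2 CPM in ASO_LINC. Of 5 simple epithelial markers 3 were measured, all keratins, and *EPCAM* and *CDH1* were not analysed here. The 3 keratins summed to 8080 to 8470 CPM in ASO_CTRL and 4920 to 8670 CPM in ASO_LINC. In ASO_LINC replicates 1, 2 and 3 *KRT18* had 2920, 2880 and 5260 CPM, so replicate 3 stood apart. Of the leukocyte markers *CD14* was measured, at no more than 2.17 CPM, and the endothelial markers were not analysed here. The part of these shifts in the results on clock genes was not tested.

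After *SWINGN* knockdown *BHLHE40* rose to 2.31 times its control level and *PER3* fell to 0.526 of it, and these were the 2 of 10 clock genes that passed the test. A gene was called when its Benjamini-Hochberg adjusted p from edgeR, over all 14660 genes tested, was below 0.01 with a log2 fold change past 0.5 in either direction. By this rule 7.54% of all genes were called, 4.91% as higher in ASO_LINC and 2.63% as lower. The 10 log2 fold changes ran from -0.93 to 1.21 with a median of 0.32, against a median of 0.00 over all genes tested. In 5 of the 10, *ARNTL*, *PER2*, *PER3*, *NR1D2* and *BHLHE40*, the libraries of the 2 conditions did not overlap, and this was so for 36.1% of all genes. The labels do not say whether the replicates were separate cultures, so p-values measure the spread between these libraries.

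**Figure D1:**
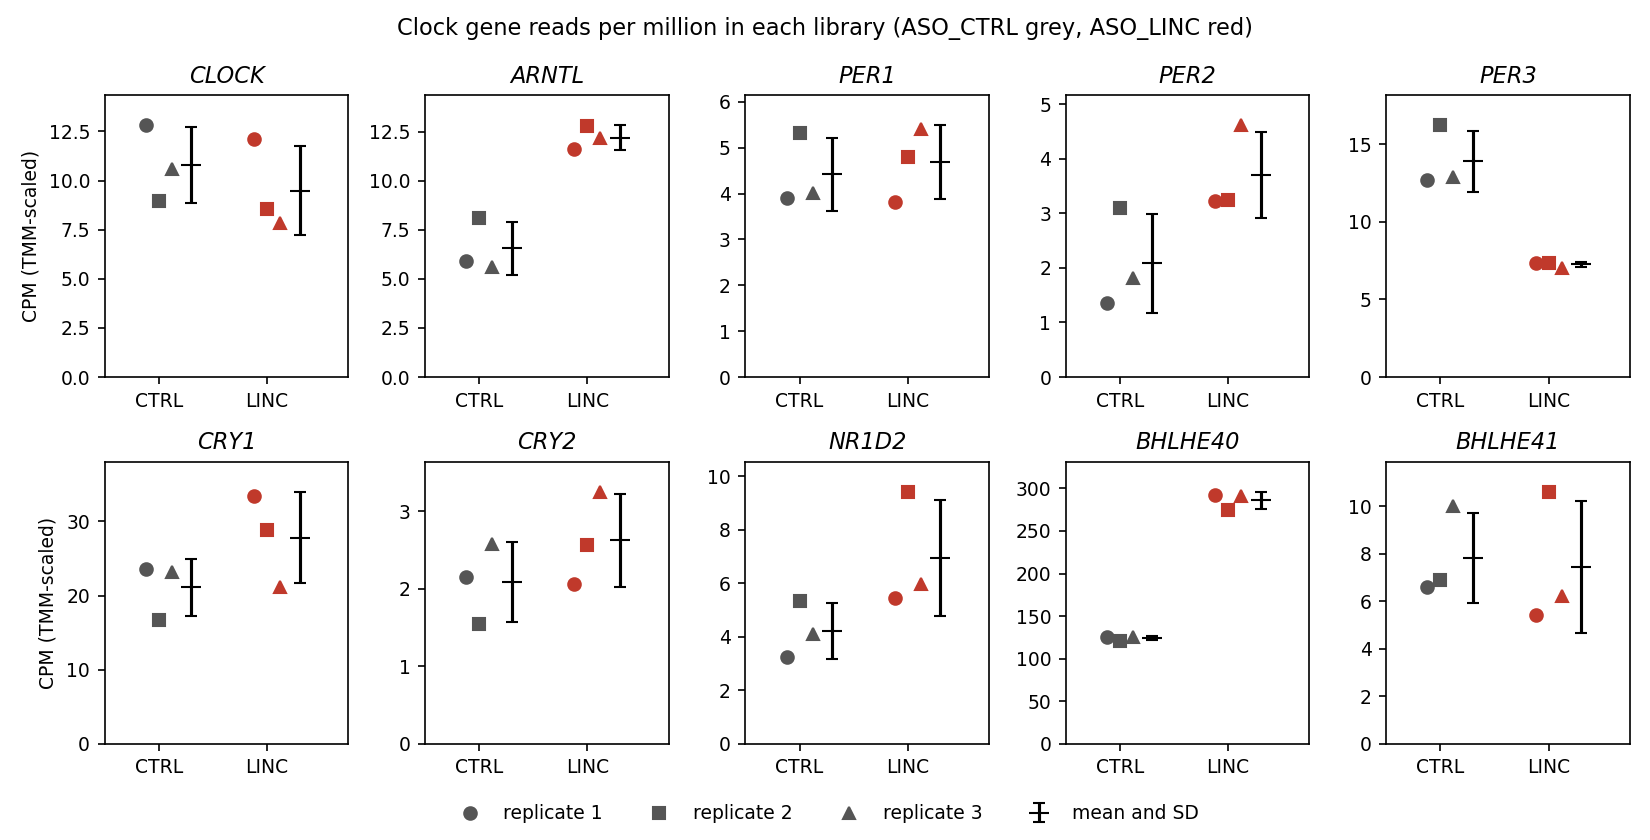
Level of each of the 10 clock genes in CPM (reads of the gene scaled to the library's total with TMM factors, each panel on its own axis from 0) in the 3 ASO_CTRL and 3 ASO_LINC libraries, with the mean and SD beside them. *BHLHE40* and *ARNTL* lie higher in every ASO_LINC library and *PER3* lower, whereas *CLOCK*, *PER1*, *CRY1*, *CRY2* and *BHLHE41* overlap between the conditions.

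Levels are given as CPM, the reads of a gene relative to all reads on genes after TMM scaling. They are not divided by transcript length, so they compare libraries for 1 gene and do not rank the genes against each other.

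*BHLHE40*, at chr3:5021122-5027008 (GRCh37, plus strand), encodes the repressor DEC1 and was the best counted of the 10, with 704 to 1988 reads per library. Its level was 125, 121 and 125 CPM in ASO_CTRL replicates 1, 2 and 3 and 292, 275 and 291 CPM in ASO_LINC replicates 1, 2 and 3. Every ASO_LINC library lay far above every control, and within a condition the libraries were almost level. The mean went from 124 ± 2.20 to 286 ± 9.69 CPM (SD over 3 libraries), and the log2 fold change was 1.21 with a standard error (SE) of 0.12 (adjusted p = 1e-04 by the quasi-likelihood test of edgeR). It was called in each of 6 fits with a library left out, with log2 fold changes from 1.19 to 1.24.

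Its paralog *BHLHE41*, which encodes DEC2 and lies at chr12:26272963-26277970 (GRCh37, minus strand), did not pass the test. It had 6.60, 6.88 and 10 CPM in the 3 control libraries and 5.44, 10.6 and 6.24 CPM in the 3 knockdown libraries. The highest library of each condition stood apart from its other 2, and the conditions overlapped. The log2 fold change was -0.09 with a 95% interval from -0.73 to 0.55 (edgeR adjusted p = 0.865), and it changed sign without ASO_CTRL replicate 3 (0.15) or ASO_LINC replicate 1 (0.12). In each library the read ratio of *BHLHE40* to *BHLHE41* was higher after knockdown, from 4.66 to 5.67 on the log2 scale against 3.60 to 4.18 in the controls.

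Of the 3 *PER* genes, whose proteins form the repressive arm with the CRY proteins, only *PER3* passed the test. *PER3*, at chr1:7844351-7905237 (GRCh37, plus strand), had 94, 94 and 135 reads in ASO_CTRL and 50, 43 and 26 reads in ASO_LINC. Scaled to depth, this was 12.7, 16.2 and 12.9 CPM in the controls and 7.35, 7.36 and 7.05 CPM after knockdown. The knockdown libraries were nearly equal and all lay below the lowest control. The mean was 13.9 ± 1.97 CPM in ASO_CTRL and fell to 7.25 ± 0.176 CPM with knockdown, a log2 fold change of -0.93 (SE 0.19, edgeR adjusted p = 0.00865). The adjusted p lay just under the threshold and the call was lost on leaving out any 1 library (5 of 6 fits) other than ASO_LINC replicate 3, with adjusted p from 0.0229 to 0.0403, while the log2 fold change stayed between -0.99 and -0.81.

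*PER2*, on chromosome 2, was thinly counted, with 10, 18 and 19 reads in the control libraries and 22, 19 and 17 reads in the knockdown libraries. Its level was 1.35, 3.10 and 1.81 CPM against 3.23, 3.25 and 4.61 CPM. The lowest knockdown library lay barely above the highest control. The log2 fold change was 0.83 with a 95% interval from 0.06 to 1.60, and it did not pass (edgeR adjusted p = 0.125). *PER1*, on chromosome 17, an immediate early gene of the clock that many outside signals induce, had 3.91, 5.33 and 4.01 CPM in ASO_CTRL and 3.82, 4.79 and 5.42 CPM in ASO_LINC. The conditions overlapped throughout, with a log2 fold change of 0.08 and a 95% interval from -0.49 to 0.64 (edgeR adjusted p = 0.871), and without ASO_LINC replicate 3 the value was -0.02.

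Of the reads on the 3 *PER* genes together, *PER3* held 70.7% (95% Wilson interval 62.4 to 77.7), 65.7% (57.6 to 73.0) and 68.9% (62.1 to 74.9) in ASO_CTRL replicates 1, 2 and 3. In ASO_LINC it held 51% (41.3 to 60.7), 47.8% (37.8 to 58.0) and 41.3% (30.0 to 53.6). The share was lower in every knockdown library, and the means were 68.4% ± 2.50 and 46.7% ± 4.97 (SD, n = 3 in each condition; exact permutation test, two-sided p = 0.1). With 3 libraries against 3, 0.1 is the smallest p this test can give. The intervals cover counting error only.

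The 2 *CRY* genes encode the stronger repressors of the loop, and neither passed the test. *CRY1*, on chromosome 12, had 23.6, 16.7 and 23.2 CPM in ASO_CTRL and 33.4, 28.8 and 21.1 CPM in ASO_LINC. Replicates 1 and 2 of the knockdown lay above all controls and replicate 3 lay among them. The log2 fold change was 0.40 with a 95% interval from -0.05 to 0.85 (edgeR adjusted p = 0.205), and it ranged from 0.24 to 0.54 when 1 library was left out. *CRY2*, on chromosome 11, had between 9 and 27 reads per library. It had 2.15, 1.55 and 2.58 CPM in the controls and 2.06, 2.57 and 3.25 CPM after knockdown, with a log2 fold change of 0.24 and a 95% interval from -0.48 to 0.96 (edgeR adjusted p = 0.656).

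The activators *CLOCK* and *ARNTL*, whose proteins work as a pair, did not pass the test, but only for *CLOCK* did the conditions overlap. *ARNTL*, at chr11:13298199-13408813 (GRCh37, plus strand), had 44, 47 and 59 reads in ASO_CTRL and 79, 75 and 45 reads in ASO_LINC, the last in the shallowest library. Its level was 5.93, 8.09 and 5.63 CPM against 11.6, 12.8 and 12.2 CPM. All 3 knockdown libraries lay above all 3 controls and close to each other. The mean was 6.55 ± 1.34 CPM in ASO_CTRL and 12.2 ± 0.612 CPM in ASO_LINC, a log2 fold change of 0.92 (SE 0.21, 95% interval 0.46 to 1.38), and the adjusted p of 0.0127 from edgeR was just over the threshold. It was called in 1 of the 6 fits without a library and 3 of 11 other fits, with adjusted p up to 0.0756, without ASO_CTRL replicate 3. It passed under DESeq2 (0.00741), under limma-voom (0.00928), without ASO_LINC replicate 3 (0.00658) and with GC content and length corrected (0.00931).

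*CLOCK*, at chr4:56294070-56413076 (GRCh37, minus strand), encodes the partner of ARNTL. It had 12.8, 8.95 and 10.6 CPM in ASO_CTRL and 12.1, 8.56 and 7.86 CPM in ASO_LINC. The conditions overlapped, and the log2 fold change was -0.17 with a 95% interval from -0.67 to 0.34 (edgeR adjusted p = 0.656). *NR1D2*, on chromosome 3, encodes the repressor REV-ERB beta of the second loop. It had 3.23, 5.33 and 4.10 CPM in ASO_CTRL and 5.44, 9.41 and 5.96 CPM in ASO_LINC, on 22 to 55 reads per library. The lowest knockdown library was just above the highest control, and the log2 fold change of 0.74 (95% interval 0.10 to 1.38) did not pass (edgeR adjusted p = 0.102).

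Ratios between 2 clock genes of the same library depend little on how libraries are scaled to each other, and 6 pairs were compared. The log2 ratio of *PER2* to *PER3* went from -2.63 ± 0.35 in ASO_CTRL to -0.94 ± 0.31 in ASO_LINC (SD, n = 3 in each condition), a difference of 1.70, the largest of the 6. That of *BHLHE40* to *BHLHE41* differed by 1.31, that of *PER1* to *PER3* by 0.98, that of *CLOCK* to *ARNTL* by -1.07 and that of *PER1* to *PER2* by -0.72. In these 5 pairs the conditions did not overlap, and the exact permutation test gave the two-sided p of 0.1 that is its lowest here (adjusted p = 0.12 over the 6 pairs), so no pair could pass a threshold of 0.05. The pairs share genes and are not independent. *CRY1* to *CRY2* differed by 0.09 (exact permutation p = 0.8), with ratios from 2.59 to 3.84 in the knockdown libraries around the 3.03 to 3.28 of the controls.

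**Figure D2:**
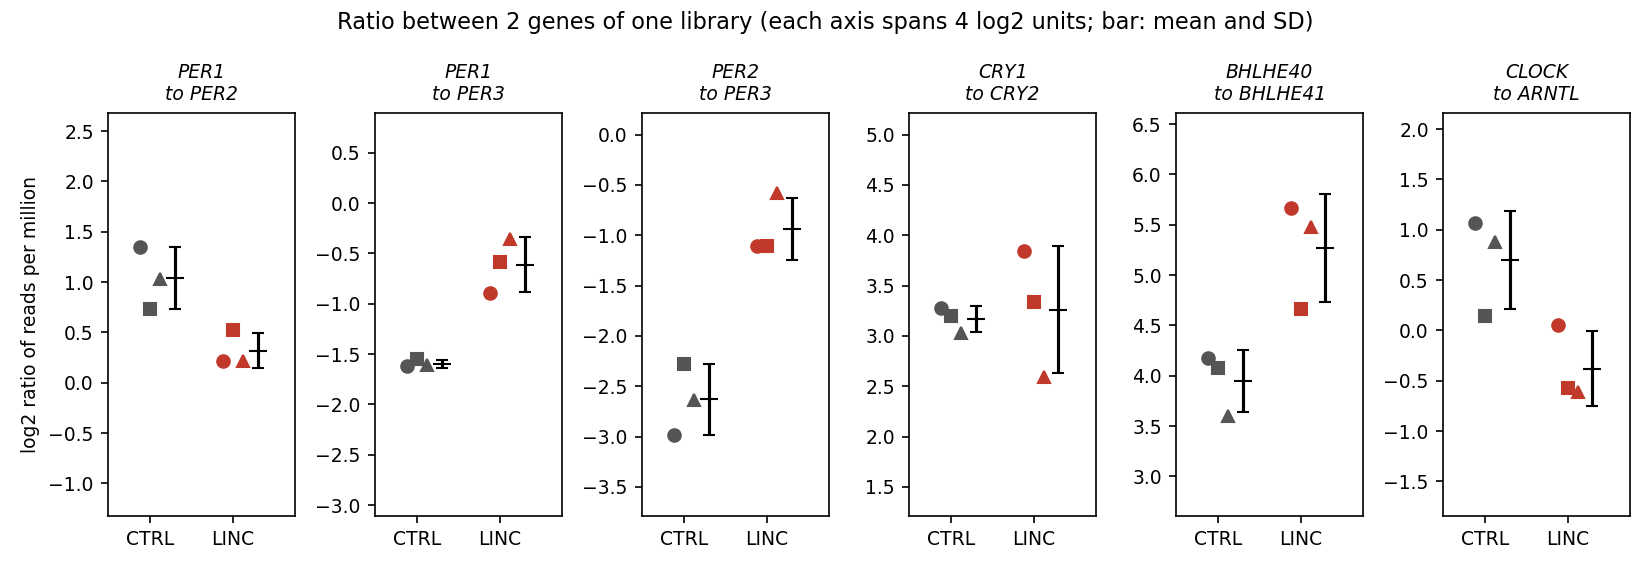
Log2 ratio of the CPM of 2 genes within each library, for 6 pairs, in ASO_CTRL (grey) and ASO_LINC (red), with circles, squares and triangles for replicates 1, 2 and 3 and the mean and SD beside them. Each axis spans 4 log2 units, so distances can be compared between panels, and *CRY1* to *CRY2* is the pair whose conditions overlap.

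A further 21 genes of the clock pathway were tested. Of the 21, 4 rose (*ARNTL2*, *NFIL3*, *NAMPT*, *CSNK1E*), *DBP* fell and 16 did not pass, beside the 7.54% of all genes called. Their median log2 fold change was 0.22. In 12 of the 21 the conditions did not overlap, beside 36.1% of all genes tested.

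Among the activator paralogs *ARNTL2*, a relative of *ARNTL* that also pairs with CLOCK, had 40.5, 37.7 and 36.5 CPM in ASO_CTRL and 86.0, 81.3 and 86.5 CPM in ASO_LINC. The conditions were well apart, and the log2 fold change was 1.14 (SE 0.13, edgeR adjusted p = 0.000248), called in each of 6 fits with a library left out. *NPAS2*, a relative of *CLOCK* that can stand in for it, had a log2 fold change of 0.22 with a 95% interval from -0.17 to 0.61 (adjusted p = 0.414). The difference between *ARNTL2* and *NPAS2* was not tested.

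In the second loop, beside *NR1D2* above, *NR1D1* and *RORA* were measured, and both had higher means after knockdown without passing. *NR1D1*, which encodes REV-ERB alpha, the relative of NR1D2, had 3.77, 3.96 and 2.10 CPM in ASO_CTRL and 8.67, 5.82 and 11.4 CPM in ASO_LINC. Its conditions did not overlap, and its log2 fold change of 1.41 (SE 0.32, edgeR adjusted p = 0.0134) was just short of a call. It passed under DESeq2 (0.00191), with GC content and length corrected (0.00281) and in 1 of 6 fits without a library, that without ASO_LINC replicate 2 (0.00934), and the adjusted p was up to 0.0686 in the others, without ASO_CTRL replicate 3. *RORA*, which encodes the activator at the same element, had a log2 fold change of 0.92 (95% interval 0.26 to 1.58, adjusted p = 0.0554) on 12 to 35 reads per library. *ARNTL*, a known target of both kinds of receptor, had a higher mean in the same libraries and was not called. A link between the levels of these receptors and of *ARNTL* was not tested.

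Among the output genes the factors that share the D-box went in opposite directions. *DBP*, an activator at the D-box and a classic E-box target, had 6.33, 9.29 and 7.15 CPM in ASO_CTRL and 2.06, 2.57 and 3.25 CPM in ASO_LINC, on 47 to 75 and 12 to 15 reads. All knockdown libraries lay well below the lowest control, and the log2 fold change was -1.56 (SE 0.28, edgeR adjusted p = 0.00383), the lowest of the clock pathway. *NFIL3*, which represses at the same sequence, had 18.7, 12.6 and 16.3 CPM in the controls and 41.0, 34.7 and 29.3 CPM after knockdown, with a log2 fold change of 1.14 (SE 0.19, adjusted p = 0.00295). The call of *DBP* was lost in 4 of 6 when a library was dropped, namely ASO_CTRL replicate 2 (adjusted p = 0.0165) or 3 (0.0191) or ASO_LINC replicate 1 (0.0282) or 2 (0.0164), and that of *NFIL3* in 3, without ASO_CTRL replicate 2 (0.0140) or 3 (0.0207) or ASO_LINC replicate 1 (0.0201).

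*TEF*, a relative of *DBP*, had a log2 fold change of -0.56 with a 95% interval from -1.27 to 0.15 (edgeR adjusted p = 0.259), on 9 to 29 reads per library. *NAMPT*, the rate-limiting enzyme of NAD salvage and a known clock output, rose from 297 ± 35.3 to 572 ± 135 CPM, with 637, 662 and 416 CPM in the 3 knockdown libraries, the lowest being replicate 3. Its log2 fold change was 0.95 (SE 0.18, adjusted p = 0.00557), and with a library left out it was called only without ASO_LINC replicate 3, with adjusted p from 0.0189 to 0.0316 in the other 5. *CIART*, *USP2* and *WEE1* had log2 fold changes of 1.03, -0.70 and -0.34 and did not pass.

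Of 8 measured kinases and ubiquitin ligase subunits that act on PER and CRY proteins, 1 passed, a share of 12.5% that is near the 7.54% of all genes called. *CSNK1E*, which encodes casein kinase 1 epsilon, a kinase that marks PER proteins for degradation, had 49.7, 48.4 and 50.5 CPM in ASO_CTRL and 93.2, 87.1 and 91.6 CPM in ASO_LINC. The libraries of a condition were nearly level, and the log2 fold change was 0.87 (SE 0.12, edgeR adjusted p = 0.000995), called in all fits that left out 1 library except that without ASO_CTRL replicate 3 (0.0114). Its close relative *CSNK1D* had a log2 fold change of 0.27 (95% interval -0.04 to 0.59). The other 6 ranged from -0.54 for *BTRC* to 0.46 for *FBXW11*, both subunits that recognise phosphorylated PER proteins. *TIMELESS* and *TIPIN*, which work together at replication forks, had log2 fold changes of -0.49 and -0.20 and did not pass.

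**Figure D3:**
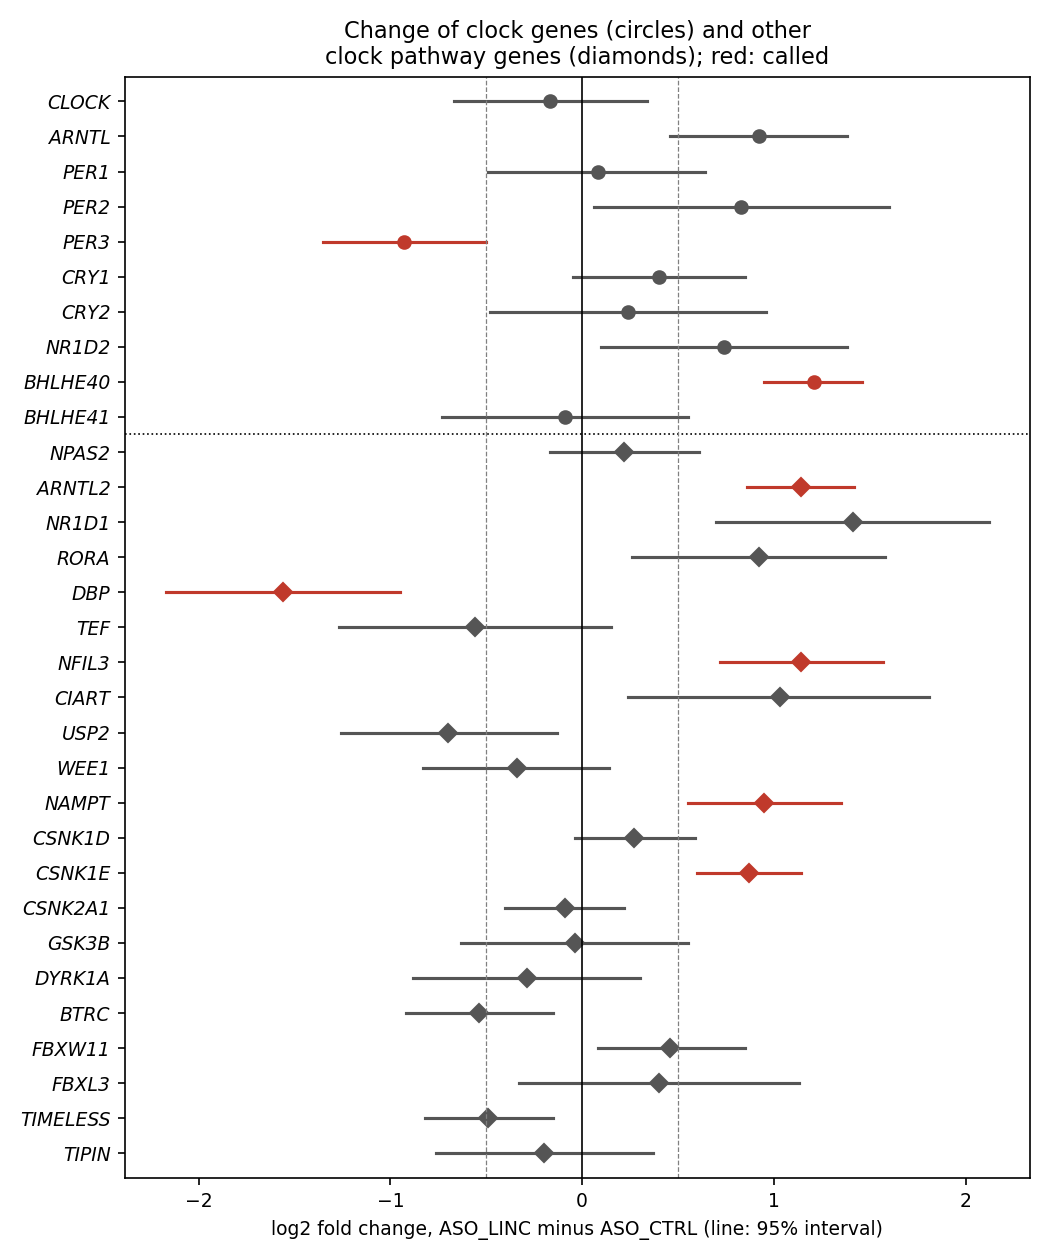
Log2 fold change, ASO_LINC minus ASO_CTRL, of the 10 clock genes (circles, above the dotted line) and 21 other clock pathway genes (diamonds), with 95% intervals from edgeR. Called genes are red and dashed lines mark a log2 fold change of 0.5 in either direction. *DBP* has the lowest value at -1.56 and *NR1D1* the highest at 1.41, but *NR1D1* is not called and has one of the widest intervals.

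Set against the promoter sequences above, the 4 clock genes with an E-box had log2 fold changes of 0.08 (*PER1*), 0.74 (*NR1D2*), 1.21 (*BHLHE40*) and -0.09 (*BHLHE41*), so they held 1 of the 2 called genes and no common direction. *CIART*, with 3 E-boxes in its window, and *TEF*, with 1 in both of its windows, had values of 1.03 and -0.56. *TIMELESS* and *DYRK1A*, each with an E-box, had -0.49 and -0.29. No window of the called pathway genes *ARNTL2*, *DBP*, *NFIL3*, *NAMPT* and *CSNK1E* held an E-box. A RORE lay in a window of *ARNTL* and of *NFIL3*, which had 0.92 (not called) and 1.14 (called). *PER3*, with the D-box, fell in the same libraries in which the D-box activator *DBP* fell and its repressor *NFIL3* rose, whereas *NR1D2*, which also has a D-box, had a higher mean. These windows and the RNA levels are set side by side as a description, and binding of any factor was not measured here.

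Exons of some clock genes overlap exons of other measured genes on the opposite strand, and whether reads were counted by strand is not given in the sources used here. The partner of *PER3*, *UTS2*, had 6 to 16 reads per library and a log2 fold change of 0.55 (edgeR adjusted p = 0.294). *BHLHE40-AS1*, opposite *BHLHE40*, had 5 reads in each control library and 9 to 13 reads in the knockdown libraries, too few to be tested. *CLOCK* overlaps *TMEM165* (log2 fold change 0.22), *NR1D1* overlaps *THRA* (-0.56, adjusted p = 0.0771) and *DBP* overlaps *SPHK2* (-0.28), and none of these was called. Where counting was not by strand, reads of the overlapping stretches cannot be told apart.

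The GC content of the longest annotated transcript ranged over the 10 genes from 37.2% for *CRY1* to 62.7% for *PER1*, and libraries can differ in their yield along this range. Once trends of a library with GC content and transcript length were removed, the changes in ASO_LINC replicates 1, 2 and 3 relative to the control mean were 1.21, 1.14 and 1.13 on the log2 scale for *BHLHE40*, -0.96, -0.94 and -0.91 for *PER3*, and 0.69, 0.83 and 0.97 for *ARNTL*. For *CRY1* they were 0.43, 0.18 and 0.12, against 0.67, 0.45 and 0.02 before. For 2 other genes a library changed sign, *CLOCK* in replicate 1 from 0.17 to -0.05 and *PER1* in replicate 3 from 0.29 to -0.04. This correction was chosen after the data were seen.

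**Figure D4:**
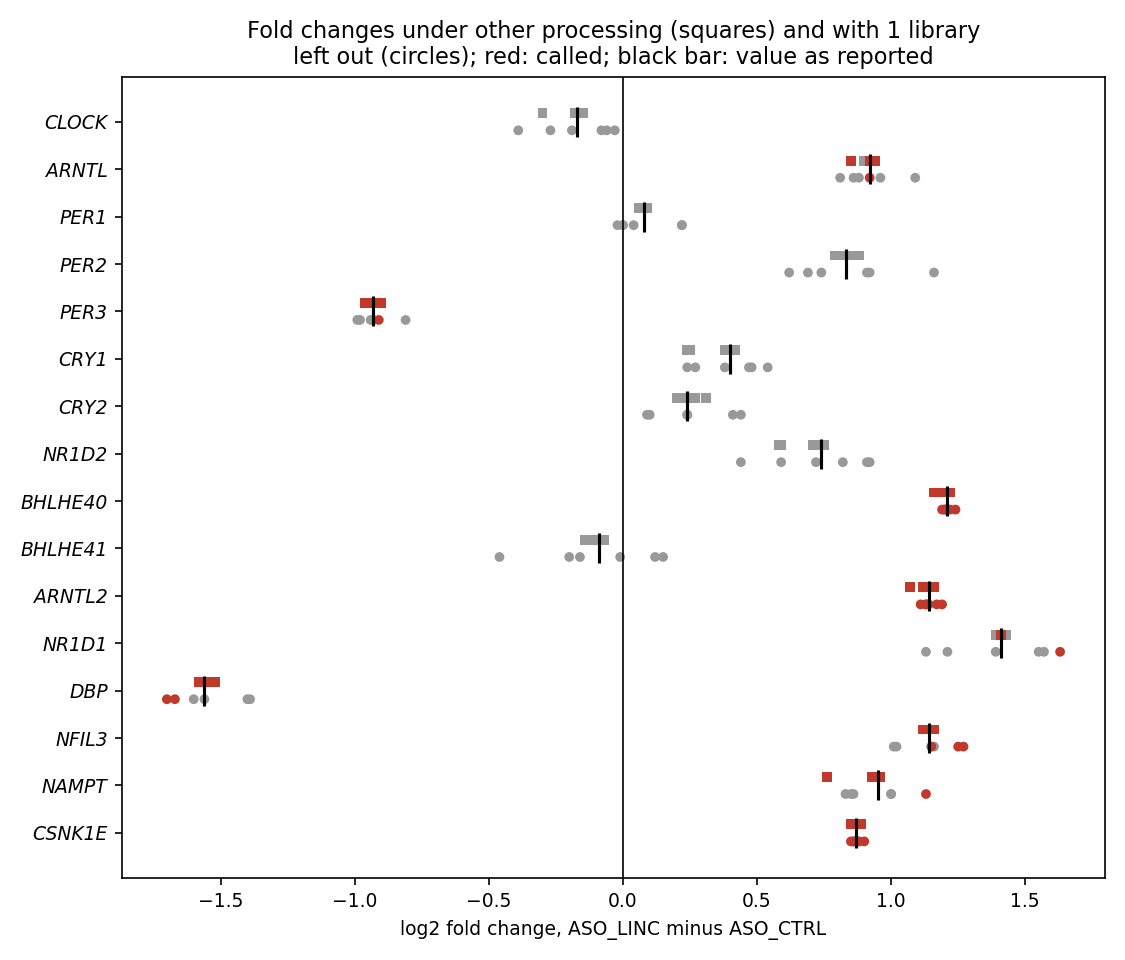
Log2 fold change, ASO_LINC minus ASO_CTRL, of the 10 clock genes and 6 other pathway genes as reported (black bar), under other tools, scalings and filters (squares) and with 1 library left out (circles). Red marks fits in which the gene was called. *BHLHE40* and *ARNTL2* are red throughout, *PER3* and *DBP* keep their side of 0 but lose the call in several fits, and *PER1* and *BHLHE41* lie on both sides of 0.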

How the data were processed

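RNA-seq of 6 libraries of H226 cells was analysed, 3 transfected with ASO_CTRL and 3 with ASO_LINC#3, grouped by their titles (the methods paragraph names BJ cells, the labels H226). The cDNA was primed with oligo-dT. Per the submitters' processing notes the authors used STAR, edgeR and the build hg19, and the deposited values are whole read counts per gene name, neither normalized nor pooled. The counting tool, its annotation and strand setting are not given in the sources used here. Totals of reads on no gene (24.8% to 28.1% per library) were left out, and there were 0 columns of other samples.

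Counts were scaled by TMM, filtered by filterByExpr (14660 genes) and compared in R 4.3.3 with the quasi-likelihood test of edgeR 4.0.16, without a block. Calls needed a Benjamini-Hochberg adjusted p-value under 0.01 and an absolute log2 fold change over 0.5. Intervals are at 95%. Log2 CPM of single libraries used a prior count of 2. The fit was tested on simulated data with the same dispersion for all genes. Those data do not carry the uneven spread between libraries given next, so they set no limit on the genes that did not pass. No 2 libraries of a condition were alike within sampling noise (chi-square per degree of freedom at least 2.50). That value was for ASO_LINC replicates 1 and 2, and each of them against replicate 3 gave 13 and 14. Between ASO_CTRL libraries it was 6.94 to 11.9. Same-numbered libraries of the 2 conditions did not deviate together (correlations 0.06, -0.15 and -0.18).

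The 10 genes, the pathway lists and the tests were chosen with earlier results of these data known. The text names all 10 genes, every pathway gene called, 7 pathway genes fixed by name and, by annotation, genes overlapping them, and gives the others by range or value. Positions are from a GENCODE annotation lifted to GRCh37, promoters from RefSeq on GRCh38.p14. GC content and length were matched for 87.2% of the genes tested. Alternatives used DESeq2 1.42.0 and limma 3.58.1.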

Additional observations from a re-analysis of the deposited data

How the results depend on the processing

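*BHLHE40* was the 1 clock gene called in every fit. The number of clock genes called was 1 in place of 2 with library size only, with the replicate block and with a bound of 1 on the log2 fold change, since *PER3* was lost (adjusted p = 0.0103 and 0.0243 in the first 2), and from 1 to 3 when 1 library was left out. Of the other pathway genes 3 in place of 5 were called with a bound of 1, and from 1 to 7 without 1 library, the lowest being that without ASO_CTRL replicate 3 and the highest that without ASO_LINC replicate 3. Over all genes the count of 1106 became 656 with the replicate block, 2465 at an adjusted p below 0.05, 690 with a bound of 1 and 1683 with the correction for GC content and length, and it ranged from 359 to 2616 when 1 library was left out. The replicate numbers gave no sign of pairing, so the block shows only how the counts move. It also lost *NAMPT* (adjusted p = 0.0105). The difference between conditions in the log2 ratio of *CRY1* to *CRY2* ranged from -0.20, without ASO_LINC replicate 1, to 0.42, without ASO_LINC replicate 3. The log2 fold change of *PER1* ranged from -0.02, without ASO_LINC replicate 3, to 0.22. That of *BHLHE41* ranged from -0.46 to 0.15, without ASO_CTRL replicate 3, with 0.12 without ASO_LINC replicate 1. The cause was not tested. The other pair differences kept their direction. *PER1*, *PER2*, *CRY2* and *NR1D2* rest on 9 to 55 reads per library.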
